A study of Homo sapiens with 11 samples.

Results

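The genes described here are 10 genes of the oxygen-sensing pathway built around hypoxia-inducible factor (HIF), with a set of its transcriptional targets. They are HIF1A, VHL, EGLN1, EGLN3, BNIP3, BNIP3L, ANKRD37, NDUFA4L2, P4HA1 and FAM162A, taken by gene symbol from tables that hold 15148 symbols between them. The knockdown table lists 9 of the 10 and the overexpression table lists 7, all of which are among the 9. EGLN3 was not analysed here, and BNIP3 and NDUFA4L2 have values for knockdown only. A filter on low values, given under each comparison, left 8 members tested in knockdown and 7 in overexpression.

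RNA was sequenced from 11 libraries of ARP1 cells, a human line of multiple myeloma, that is, of malignant plasma cells, here of the IgA kappa type. The groups were 3 libraries of cells with an shRNA against PHF19, 3 with a scramble control, 2 overexpressing PHF19 from a lentiviral PCDH plasmid that carries its open reading frame, and 3 with the empty PCDH vector, numbered 3 to 5 in their titles. PHF19 is a Polycomb-like protein that associates with the histone methyltransferase complex PRC2. All cultures were kept in RPMI1640 medium at 37 °C in a humidified incubator with 5% CO2, and no hypoxic culture is named in the labels. Only the overexpressing cells are described as sorted, the hairpin is not identified, and the genotype tag of the shRNA and scramble libraries repeats the wording for overexpression, so their titles gave the groups. Whether libraries of a group came from separate cultures or clones is not given, so p-values measure the spread between these libraries, which may be technical.

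In well-oxygenated cells the prolyl hydroxylases EGLN1, EGLN2 and EGLN3 use oxygen to hydroxylate HIF1A protein, and the VHL ubiquitin ligase then binds it and marks it for degradation. When oxygen is scarce, HIF1A protein accumulates, pairs with ARNT and binds the hypoxia response element, whose core letters are ACGTG or GCGTG. Much of the control is thus on the protein and is not seen in the HIF1A transcript. Among the targets, BNIP3 and BNIP3L are receptors for the removal of mitochondria by mitophagy, NDUFA4L2 lowers the activity of the respiratory chain, P4HA1 is a catalytic subunit of the collagen prolyl hydroxylase, and ANKRD37 and FAM162A are genes induced in hypoxia. EGLN1 and EGLN3 are themselves HIF targets. Multiple myeloma grows in bone marrow, a tissue of low oxygen.

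The promoter windows of 4 targets are shown so that the core hypoxia response elements can be read beside the values of ANKRD37, P4HA1, FAM162A and BNIP3. They were chosen after their letters and values were seen, and the windows of EGLN1 and HIF1A, which are not printed, hold such letters too. They are RefSeq windows of 300 bases, 250 before and 50 after an annotated start, on GRCh38.p14, while the expression values were made on hg19. ANKRD37 is at chr4:185396591-185396890 on the plus strand, P4HA1 at chr10:73096817-73097116 on the minus strand, FAM162A at chr3:122383932-122384231 on the plus strand and BNIP3 at chr10:131981874-131982173 on the minus strand. Capitals mark the core letters on either strand. The letters CACGTG hold the first core form on both strands and count as 2 matches.
ANKRD37: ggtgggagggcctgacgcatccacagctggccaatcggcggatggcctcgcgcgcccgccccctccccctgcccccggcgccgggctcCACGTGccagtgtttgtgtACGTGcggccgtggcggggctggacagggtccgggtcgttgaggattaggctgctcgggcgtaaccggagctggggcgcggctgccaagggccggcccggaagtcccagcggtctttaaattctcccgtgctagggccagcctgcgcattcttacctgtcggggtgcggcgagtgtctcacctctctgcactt
P4HA1: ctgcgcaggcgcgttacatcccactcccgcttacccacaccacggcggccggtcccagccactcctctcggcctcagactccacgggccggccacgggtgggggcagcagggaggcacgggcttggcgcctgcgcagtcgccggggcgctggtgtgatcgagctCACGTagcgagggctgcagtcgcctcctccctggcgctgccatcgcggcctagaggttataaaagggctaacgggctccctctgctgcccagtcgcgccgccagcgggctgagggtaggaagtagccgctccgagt
FAM162A: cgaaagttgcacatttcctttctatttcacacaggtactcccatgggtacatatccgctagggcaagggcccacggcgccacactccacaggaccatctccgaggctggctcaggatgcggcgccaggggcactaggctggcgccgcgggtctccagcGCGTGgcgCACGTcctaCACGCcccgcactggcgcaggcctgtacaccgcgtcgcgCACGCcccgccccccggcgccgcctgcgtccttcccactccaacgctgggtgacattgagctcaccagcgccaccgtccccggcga
BNIP3: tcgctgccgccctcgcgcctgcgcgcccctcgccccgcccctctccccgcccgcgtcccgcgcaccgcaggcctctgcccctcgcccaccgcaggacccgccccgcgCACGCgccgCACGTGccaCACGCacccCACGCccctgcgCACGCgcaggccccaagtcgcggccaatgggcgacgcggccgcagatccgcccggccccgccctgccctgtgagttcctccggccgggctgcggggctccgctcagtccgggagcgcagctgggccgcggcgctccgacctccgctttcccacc

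ANKRD37 had 3 matches to ACGTG and 0 to GCGTG, counting both strands. P4HA1 had 1 match to ACGTG and 0 to GCGTG. FAM162A had 1 match to ACGTG and 3 to GCGTG, and BNIP3 had 2 and 4. These short strings are common. Of 35116 RefSeq windows of the same length, 21.4% held ACGTG, 36.5% held GCGTG and 48.4% held at least 1 of them, while 8.82% held ACGTG at least 2 times. EGLN1 had 1 match to ACGTG, the 2 windows of HIF1A had 1 and 0 matches to GCGTG, and the EGLN3 window had 0 to either. A match is a string of letters and was not tested as a binding site.

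PHF19 itself, the gene both experiments act on, was measured at 75.2, 103 and 108 FPKM (abundance per length and depth) in shRNA libraries, against 113, 152 and 123 FPKM in scramble libraries. The shRNA values lay below all scramble values, with a log2 difference of -0.44 (SE 0.17) that did not pass limma's threshold (adjusted p = 0.147) and passed when equal-numbered libraries were blocked (adjusted p = 0.0445). The titles do not name this pairing of libraries, here and below, which was read from these same values. In the other table PHF19 was at 227 and 213 FPKM in overexpressing libraries, against 111, 119 and 115 FPKM in empty vector libraries, a log2 difference of 0.93 (SE 0.094; limma adjusted p = 0.0438). That call was lost without overexpression library 1, without overexpression library 2, without empty vector 3 or without empty vector 4 (adjusted p from 0.149 to 0.264) and held without empty vector 5 (0.0349). The files give no read counts, so depth is unknown, and the summed values ran from 501348 to 524966 in shRNA, 470294 to 526068 in scramble, 498485 to 502349 in overexpressing and 425155 to 426112 in empty vector libraries. Of 12 plasma cell markers, 11 are in the knockdown table and 10 in the other, and their summed values were 1461 to 1878 FPKM in shRNA against 1832 to 2049 in scramble libraries, and 4386 to 11554 FPKM in overexpressing against 2554 to 3559 in empty vector libraries. The plasma cell markers TNFRSF17 and MZB1 were listed at 0 in empty vector 3 and empty vector 4, and the part of these differences in the results was not tested. The summed B cell, T cell and myeloid markers did not exceed 6.17 FPKM in any library, the myeloid sum of an overexpressing library. Those of a kidney epithelial line, the kind of cell that packaged the virus, did not exceed 20.0 FPKM. Of 5 B cell, 5 T cell, 5 myeloid and 6 kidney markers, the knockdown table lists 2, 2, 4 and 3. The overexpression table lists 2, 0, 1 and 2, so low sums there are partly set by missing genes.

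Knockdown addressed how the pathway stands when PHF19 is reduced. Of the 8 members tested, NDUFA4L2 rose and none fell in the fit without pairing, and with equal-numbered libraries blocked ANKRD37 fell too (limma adjusted p = 0.0310), where 11.9% of all genes were called. The level of NDUFA4L2 in shRNA libraries was 3.43 times that in scramble libraries. Among all 10900 genes tested, 5.51% were called in either direction, 4.24% higher and 1.28% lower, so 1 call in 8 members without the block is a count of 1 gene and does not set the list apart. The 8 log2 differences split into 4 positive and 4 negative (3 and 5 under quantile normalisation or median-of-ratios scaling) with a median of 0.02, beside 0.03 over all genes tested. All log2 differences here are of mean log2(FPKM + 1), which understates changes in low genes, a gene was tested where it reached 1 FPKM in 3 libraries (knockdown) or 2 (overexpression), and a call is a Benjamini-Hochberg adjusted p under 0.05 over all genes of that table.

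The transcript of HIF1A, the oxygen-regulated subunit, was at 5.37, 8.08 and 7.98 FPKM in shRNA libraries 1 to 3, against 5.39, 7.95 and 8.14 FPKM in scramble libraries 1 to 3. Library 1 of both groups was low and the groups overlapped fully. The log2 difference was -0.003 (SE 0.20; limma adjusted p = 0.994). VHL, which recognises hydroxylated HIF1A, was at 25.7, 27.1 and 25.0 FPKM in shRNA libraries, against 20.4, 21.4 and 24.5 FPKM in scramble libraries. The VHL groups did not overlap, the nearest values being 25.0 and 24.5, but the log2 difference of 0.22 (SE 0.12) did not pass (limma adjusted p = 0.292). EGLN1, the main oxygen-sensing hydroxylase, was at 11.0, 12.0 and 11.4 FPKM in shRNA libraries, against 8.79, 10.3 and 10.6 FPKM in scramble libraries. Its groups also did not overlap, with a log2 difference of 0.20 (SE 0.13; limma adjusted p = 0.392). Groups did not overlap in 32% of all genes tested, 18.9% higher and 13% lower, and in 4 of the 8 members, 3 higher and 1 lower. With 3 libraries against 3 the exact two-sided permutation test cannot go below 0.1, which is its value for each of these 4.

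NDUFA4L2 was the exception in size. It was at 21.0, 16.8 and 18.2 FPKM in shRNA libraries, against 4.39, 5.27 and 6.68 FPKM in scramble libraries. Every shRNA value was above every scramble value, by at least 10 FPKM. The means were 18.7 ± 2.12 FPKM in shRNA and 5.45 ± 1.16 FPKM in scramble libraries (SD, n = 3 each), a log2 difference of 1.62 (SE 0.17; limma adjusted p = 0.00292). The call held with each library left out in turn, with log2 differences of 1.50 to 1.75 and adjusted p from 0.00112 to 0.0232. In bulk RNA a higher level per cell cannot be told apart from a larger share of cells that express the gene.

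NDUFA4L2 lies beside SHMT2, the mitochondrial serine hydroxymethyltransferase, on the opposite strand, and the GENCODE annotation of GRCh38 gives 33 shared exonic bases out of 2806 for NDUFA4L2 (1.18%). Whether the authors' counting used strand was not given in the sources used here. SHMT2 rose too, at 345, 432 and 454 FPKM in shRNA libraries, against 189, 212 and 204 FPKM in scramble libraries (log2 difference 1.01, SE 0.14; limma adjusted p = 0.00856). Per length, NDUFA4L2 was at 6.08%, 3.89% and 4.01% of the SHMT2 level in shRNA libraries, against 2.32%, 2.49% and 3.27% in scramble libraries. The ratio was higher in all 3 shRNA libraries. It does not show where the reads fall, and the part of SHMT2 reads in the NDUFA4L2 values was not tested. NDUFA4, the respiratory chain subunit that NDUFA4L2 resembles and is described as replacing, showed no such difference, at 96.9, 66.5 and 58.8 FPKM in shRNA libraries, against 78.9, 71.6 and 44.6 FPKM in scramble libraries (log2 difference 0.19, SE 0.24; limma adjusted p = 0.656). That interval of values overlapped, and the sign turned without shRNA library 1 (-0.01) and without scramble library 3 (-0.054).

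**Figure D1:**
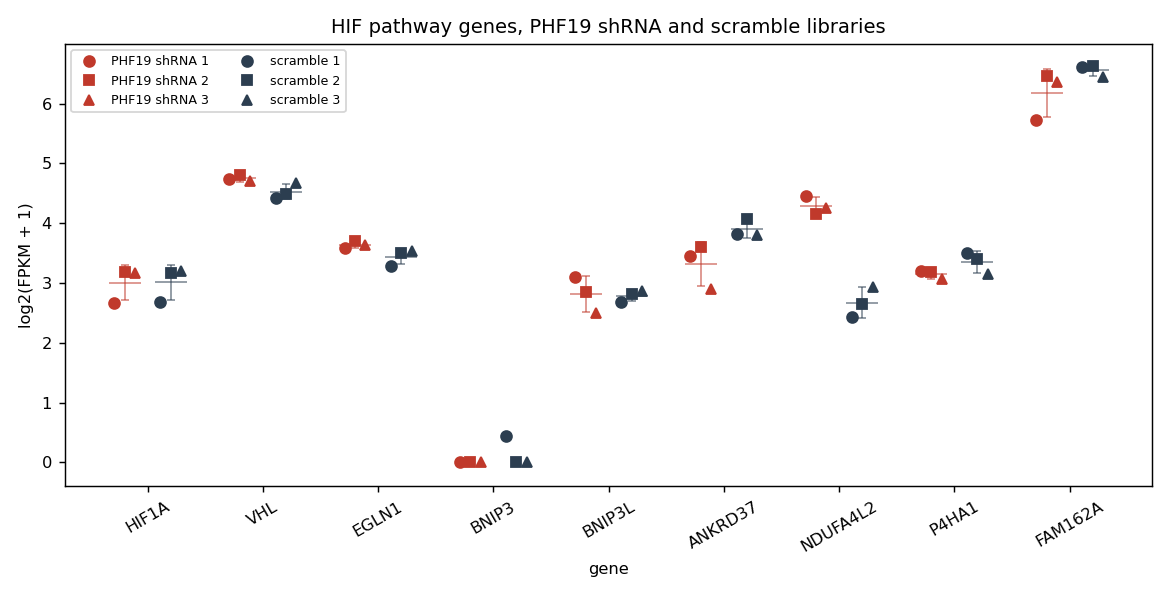
Levels of the 9 HIF pathway genes of the knockdown table, as log2(FPKM + 1), in each PHF19 shRNA library (red) and each scramble library (dark), with marker shapes for library numbers 1 to 3. Horizontal marks and bars are the group mean and SD (n = 3), left out for BNIP3, which is listed at 0 in 5 libraries; NDUFA4L2 is the gene whose groups lie far apart, and ANKRD37 lies lower in every shRNA library.

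None of the other targets was called without pairing. ANKRD37 was at 9.91, 11.2 and 6.48 FPKM in shRNA libraries, against 13.2, 15.7 and 12.9 FPKM in scramble libraries. All shRNA values were below all scramble values, and the log2 difference was -0.58 (SE 0.19). It did not pass limma's threshold without pairing (adjusted p = 0.103) and passed when the replicate number was a block (adjusted p = 0.0310), which makes 2 members called, 1 higher and 1 lower, where 11.9% of all genes tested were called, 8.2% higher and 3.68% lower. ANKRD37 shares 909 of its 2580 exonic bases (35.2%) with UFSP2 on the opposite strand, and UFSP2 was at 9.84, 8.23 and 7.31 FPKM in shRNA libraries, against 7.04, 5.63 and 4.99 FPKM in scramble libraries (log2 difference 0.46, SE 0.17; limma adjusted p = 0.130). The UFSP2 difference has the opposite sign to that of ANKRD37, and reads over the shared bases cannot be assigned without strand.

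FAM162A, the most abundant member, was at 51.7, 86.8 and 81.2 FPKM in shRNA libraries, against 97.3, 97.5 and 86.3 FPKM in scramble libraries. The groups overlapped only where shRNA library 2 lay just above scramble library 3, and shRNA library 1 was the lowest. The log2 difference of -0.38 (SE 0.18) did not pass (limma adjusted p = 0.234), and without shRNA library 1 it was -0.15. P4HA1 was at 8.17, 8.11 and 7.35 FPKM in shRNA libraries, against 10.3, 9.58 and 7.85 FPKM in scramble libraries. Its groups overlapped at scramble library 3 (log2 difference -0.20, SE 0.15; limma adjusted p = 0.433). BNIP3L was at 7.54, 6.24 and 4.68 FPKM in shRNA libraries, against 5.41, 6.05 and 6.25 FPKM in scramble libraries. The shRNA libraries spanned the whole scramble range, and the log2 difference of 0.03 (SE 0.17; limma adjusted p = 0.926) turned negative under quantile normalisation (-0.091). BNIP3 was listed at 0 in all 3 shRNA libraries, and at 0.36, 0 and 0 FPKM in scramble libraries, and was not tested.

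In shRNA libraries FAM162A (73.2 FPKM), VHL (25.9) and NDUFA4L2 (18.7) led with ranges that did not overlap. In scramble libraries FAM162A (93.7 FPKM), VHL (22.1) and ANKRD37 (13.9) led in the same way, and NDUFA4L2 was eighth of 9. EGLN1, ANKRD37, P4HA1, HIF1A and BNIP3L followed in shRNA libraries, each overlapping the next. In scramble libraries EGLN1, P4HA1, HIF1A, BNIP3L and NDUFA4L2 did so. Over the 6 libraries the genes most like NDUFA4L2 by Pearson's r of log2(FPKM + 1) were TMUB2 (0.995), SERPINE2 (0.994) and SNX17 (0.994), those most like ANKRD37 were ADAT3 (0.989), PAIP2 (0.979) and TMEM5 (0.978), and those most like FAM162A were NVL (0.998), EBNA1BP2 (0.997) and YWHAH (0.995). These are the highest among the 10900 genes over 6 points that share the group difference, and are given as a description.

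The authors' deposited table for knockdown gives p-values under 0.05 for 7 of its 9 members (77.8%), among them NDUFA4L2 (2.42e-74), FAM162A (5.01e-15) and VHL (6.68e-11). In the same deposited table of the authors, 61.2% of all genes are under 0.05. HIF1A (0.928) and BNIP3L (0.455) are the 2 members above it.

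The wider pathway was described with 7 lists of 124 symbols, aliases included, of which 92 genes were tested in knockdown. Called genes numbered 7, with 6 higher and 1 lower, beside 5.51% of all genes. They were DDIT4, STC2, VEGFA, LONP1, P4HTM and PFKL, which rose, and PGAM1, which fell. The median log2 difference over the 92 was -0.001, beside 0.03 over all genes tested. With the replicate block, 17 of the 92 were called, 8 higher and 9 lower, beside 11.9% of all genes, 8.2% higher and 3.68% lower.

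DDIT4, a stress-induced inhibitor of mTOR signalling, was at 171, 313 and 326 FPKM in shRNA libraries, against 28.2, 77.4 and 75.1 FPKM in scramble libraries (log2 difference 2.22, SE 0.44; limma adjusted p = 0.0419). STC2, a secreted glycoprotein hormone, was at 28.9, 53.6 and 56.6 FPKM in shRNA libraries, against 8.88, 14.1 and 15.6 FPKM in scramble libraries (1.75, SE 0.27; limma adjusted p = 0.0152). VEGFA, the angiogenic growth factor, was at 23.1, 41.1 and 44.4 FPKM in shRNA libraries, against 13.2, 17.6 and 19.4 FPKM in scramble libraries (1.03, SE 0.24; limma adjusted p = 0.0382). In all 3 genes library 1 was the lowest of its group and the groups did not overlap. LONP1, the mitochondrial matrix protease, was at 115, 135 and 147 FPKM in shRNA libraries, against 61.1, 61.0 and 66.1 FPKM in scramble libraries (1.06, SE 0.13; limma adjusted p = 0.00408). P4HTM, a membrane prolyl hydroxylase that can act on HIF, was at 20.6, 19.0 and 20.8 FPKM in shRNA libraries, against 8.51, 14.1 and 12.2 FPKM in scramble libraries (0.77, SE 0.17; limma adjusted p = 0.0346). These genes are known to respond to more than oxygen. DDIT4, STC2, VEGFA, LONP1 and SHMT2 are also known targets of the stress factor ATF4. The part of HIF or of ATF4 in these differences was not tested.

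Of these calls, LONP1 held with each library left out. STC2 was lost without scramble 1 (adjusted p = 0.0538) or scramble 2 (0.0541). DDIT4 held only without scramble 1, and was lost without any other library (0.0616 to 0.141). VEGFA held only without shRNA library 1 and P4HTM likewise, each being lost without any of the other 5 libraries (0.0782 to 0.141 for VEGFA and 0.0620 to 0.0990 for P4HTM). The counts moved with them. The 7 calls among 92 genes became 10 among 94 without shRNA library 1 (7 higher and 3 lower), 4 without shRNA library 2, 2 without shRNA library 3, 2 without scramble 1, 1 without scramble 2 and 2 without scramble 3, and the 601 calls among all genes became 629, 285, 180, 54, 58 and 164.

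The genes of glucose uptake and glycolysis, the best-known HIF targets, had 17 negative and 7 positive differences among 24 tested, with a median log2 difference of -0.27. Over all genes tested, 54.4% of differences were positive and the median was 0.03. In 11 of the 24 every shRNA value was below every scramble value, beside 13% of all genes tested, and in 2 every value was above, beside 18.9%. PFKL, a phosphofructokinase, rose, at 90.1, 66.7 and 73.6 FPKM in shRNA libraries, against 47.6, 45.6 and 53.2 FPKM in scramble libraries (log2 difference 0.63, SE 0.14; limma adjusted p = 0.0315). PGAM1, a phosphoglycerate mutase, fell, at 245, 305 and 295 FPKM in shRNA libraries, against 449, 414 and 380 FPKM in scramble libraries (-0.56, SE 0.14; limma adjusted p = 0.0468). In both genes the groups did not overlap. LDHA, which makes lactate, was at 270, 448 and 409 FPKM in shRNA libraries, against 581, 628 and 603 FPKM in scramble libraries (-0.72, SE 0.19; limma adjusted p = 0.0536, with the block 0.0176). The glucose transporter SLC2A1 was at 6.55, 8.75 and 7.83 FPKM in shRNA libraries, against 11.4, 10.7 and 11.6 FPKM in scramble libraries (-0.50, SE 0.14; limma adjusted p = 0.0746, with the block 0.0437). Every LDHA and SLC2A1 value in shRNA libraries was thus below every scramble value without passing the unpaired test. The PFKL call was lost without shRNA library 3 or any scramble library (adjusted p from 0.0662 to 0.133), and that of PGAM1 without any 1 of the 6 (0.0604 to 0.165).

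Other hypoxia targets had negative differences without a call. NDRG1, a hypoxia- and stress-induced gene, had a log2 difference of -0.75 (SE 0.19; limma adjusted p = 0.0510, with the block 0.0151). The chemokine receptor CXCR4 was at 2.54, 8.28 and 6.10 FPKM in shRNA libraries, against 13.2, 10.8 and 9.39 FPKM in scramble libraries (-0.97, SE 0.31; limma adjusted p = 0.103). TFRC, the transferrin receptor, had a difference of -0.52 (SE 0.15; limma adjusted p = 0.0666). The 23 tested genes of that list of signalling and stress targets split into 13 positive and 10 negative. The lists of HIF subunits (4 tested), chromatin demethylases and dioxygenases (9) and collagen hydroxylation (6) held 0 called genes by limma-trend, with 0, 3 and 1 genes at an unadjusted p under 0.05, beside 2626 of the 10900 genes tested. Among the sensors, EGLN2 was at 52.3, 54.7 and 62.6 FPKM in shRNA libraries, against 74.3, 67.6 and 65.6 FPKM in scramble libraries (-0.29, SE 0.12; limma adjusted p = 0.180), and it was named after its value was seen.

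**Figure D2:**
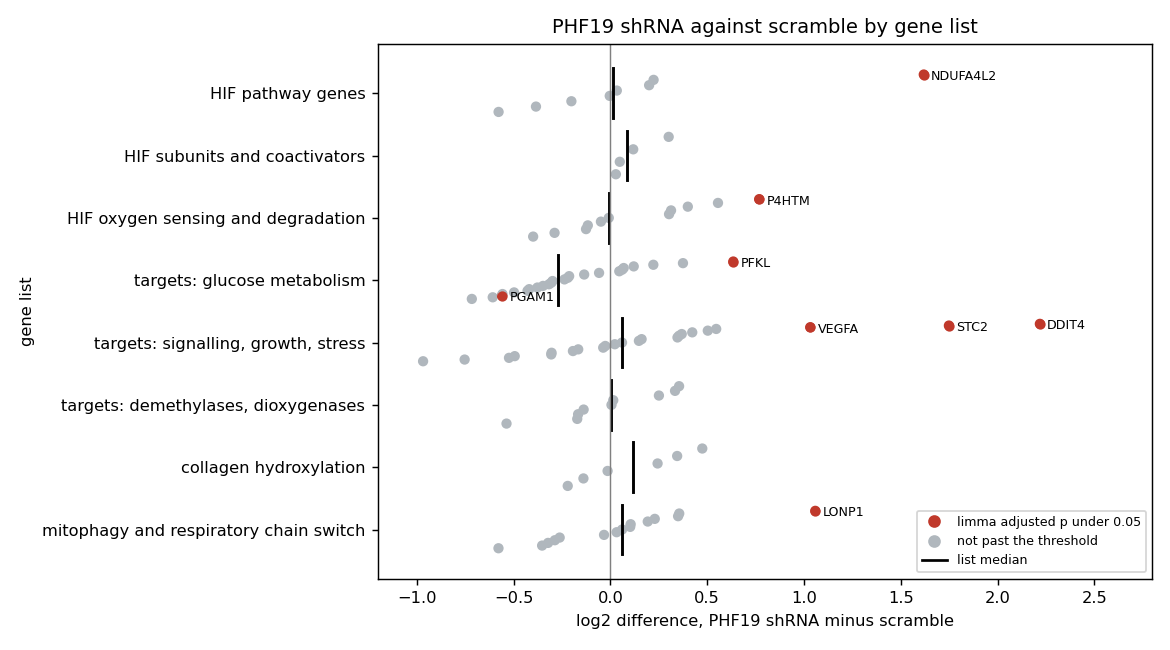
Log2 differences, PHF19 shRNA minus scramble, for every tested gene of the HIF pathway genes and of the 7 wider lists, 1 point a gene. Red points passed limma's adjusted p of 0.05 and are named, grey points did not, and black marks are list medians, which lie near 0 except for glucose metabolism at -0.27.

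Overexpression addressed the opposite manipulation, in a table normalised on its own. No member was called by limma-trend, 2 of 7 (EGLN1 and FAM162A) had an unadjusted p under 0.05, and limma without trend and robust variances called 0 too. Among the 10279 genes tested, 0.914% were called, 0.613% higher and 0.302% lower, with 1185 genes at an unadjusted p under 0.05. With genes listed at 0 in any library left out, 0 of 8665 genes were called, so this share depends on such genes being in the fit. The 7 log2 differences split into 5 positive and 2 negative with a median of 0.70, beside 0.09 over all genes tested, and of 0.68 without ANKRD37, which is listed at 0 in 1 library. Quantile normalisation moved the median over all genes to -0.04 and that over the members to 0.53. The groups did not overlap in 3 of the 7, 2 higher and 1 lower, and in 34.2% of all genes tested, 23.1% higher and 11.1% lower. Exact permutation of 2 against 3 libraries cannot go below 0.1 either.

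HIF1A was at 6.18 and 6.11 FPKM in overexpressing libraries, against 6.78, 7.42 and 10.2 FPKM in empty vector libraries 3, 4 and 5. Both overexpressing values were below all empty vector values, with a log2 difference of -0.34 (SE 0.21; limma adjusted p = 0.579). VHL was at 23.0 and 20.6 FPKM in overexpressing libraries, against 22.3, 23.0 and 20.7 FPKM in empty vector libraries. The VHL groups spanned the same range (log2 difference -0.01, SE 0.12; limma adjusted p = 0.973). EGLN1 was at 20.1 and 27.5 FPKM in overexpressing libraries, against 16.2, 11.5 and 16.0 FPKM in empty vector libraries. Its groups did not overlap, with a log2 difference of 0.67 (SE 0.23; limma adjusted p = 0.409). FAM162A was again the most abundant member, at 198 and 219 FPKM in overexpressing libraries, against 168, 103 and 122 FPKM in empty vector libraries. Its groups did not overlap either (log2 difference 0.70, SE 0.24; limma adjusted p = 0.405). Of these p-values only that of EGLN1 is under 0.05 in the authors' deposited table (0.00820), where 12.9% of all genes are.

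The 3 remaining targets were set by the spread among the empty vector libraries. P4HA1 was at 77.7 and 78.4 FPKM in overexpressing libraries, against 12.8, 23.2 and 102 FPKM in empty vector libraries 3, 4 and 5. The overexpressing pair agreed within 1% of each other and lay between empty vector 4 and empty vector 5. BNIP3L was at 24.0 and 22.5 FPKM in overexpressing libraries, against 6.33, 10.3 and 28.4 FPKM in empty vector libraries, in the same arrangement. ANKRD37 was at 47.9 and 48.9 FPKM in overexpressing libraries, and at 13.6, 0 and 112 FPKM in empty vector libraries. It was listed at 0 in empty vector 4, so no fold is given, and its highest value in the table was again empty vector 5. The log2 difference was 1.28 for P4HA1 (SE 0.95; limma adjusted p = 0.646) and 0.85 for BNIP3L (SE 0.65; limma adjusted p = 0.652).

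The SD of log2(FPKM + 1) among the 3 empty vector libraries was 1.49 for P4HA1 and 1.02 for BNIP3L, where the median gene above 0 in every library had 0.23. Of 8665 such genes, 99.8% had an SD at or below that of P4HA1 and 98.8% one at or below that of BNIP3L. From the lowest to the highest empty vector library P4HA1 spanned 7.94-fold and BNIP3L 4.48-fold. In the overexpressing pair the corresponding ratios were 1.01 and 1.06. There the median gene had an SD of 0.089, and 5.97% of genes had a smaller SD than P4HA1 and 36.1% a smaller one than BNIP3L. Close agreement in the pair was thus not particular to these targets. HIF1A, VHL, EGLN1 and FAM162A spanned 1.11-fold to 1.62-fold among the empty vector libraries.

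**Figure D3:**
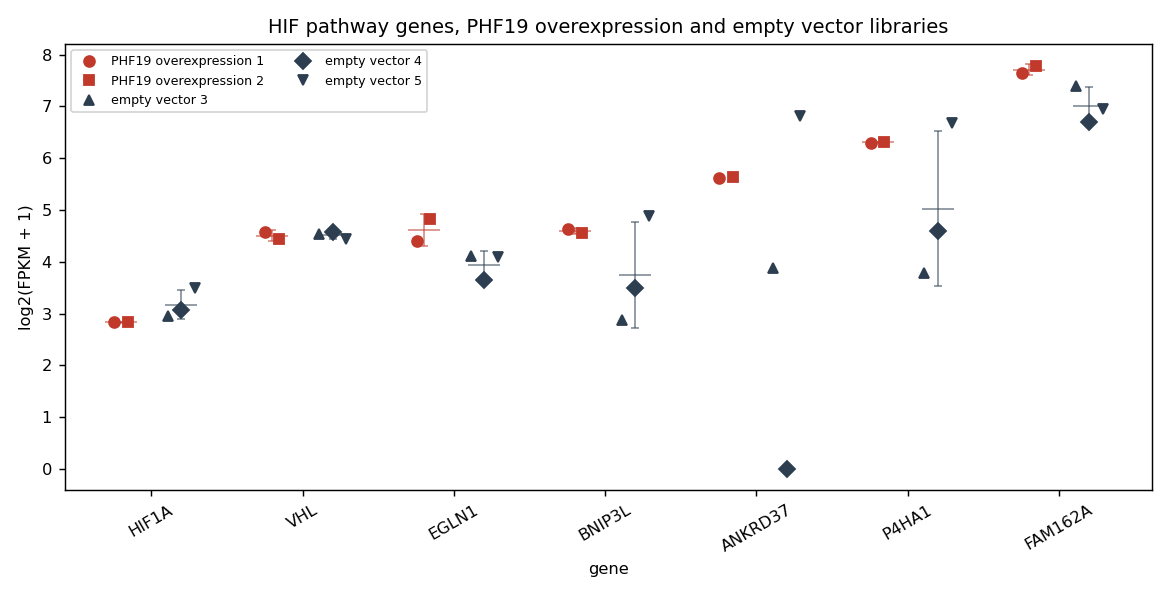
Levels of the 7 HIF pathway genes of the overexpression table, as log2(FPKM + 1), in each PHF19 overexpression library (red) and each empty vector library (dark), with marker shapes for library numbers. Horizontal marks and bars are the group mean and SD (n = 2 and n = 3), left out for ANKRD37, which is listed at 0 in empty vector 4; BNIP3L, ANKRD37 and P4HA1 are wide apart among the empty vector libraries, and close together in the overexpression pair.

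The same order of the empty vector libraries ran through the wider lists of hypoxia targets. Of 53 target genes above 0 in every library, empty vector 5 was the highest of the 3 empty vector libraries in 41 (77.4%), where it was the highest in 44.2% of the 8665 genes. Empty vector 3 was the lowest in 38 of the 53 (71.7%), where it was the lowest in 35.5% of all. Around each gene's mean over the 5 libraries, the median log2 deviation of the 53 was 0.16 and 0.22 in the overexpressing libraries, and -0.39, -0.17 and 0.26 in empty vector 3, 4 and 5. Over all genes these medians lay between -0.04 and 0.05. By this measure empty vector 5 stood with the overexpressing libraries and apart from its own group. Beyond the targets it was an extreme library too, being also the lowest of the 3 in 41.2% of the 8665 genes. In the 53 targets it was the lowest in 11.3%. Over all genes tested, those listed at 0 included, its Pearson's r of log2(FPKM + 1) was 0.760 and 0.770 with empty vector 3 and 4. With overexpressing libraries 1 and 2 it was 0.789 and 0.783. Empty vector 4 was at 0.790 and 0.798 with overexpressing libraries 1 and 2, and empty vector 3 at 0.780 and 0.776. Over all genes, closeness to the overexpressing libraries was thus not particular to empty vector 5. The pattern in the targets was seen in the data before it was counted. In empty vector 5 the markers TNFRSF17 and MZB1, listed at 0 in the other two, were above 0, and their part in the pattern was not tested.

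Single targets show how far the range went. PFKFB4, a regulator of glycolysis, was at 18.5 and 17.3 FPKM in overexpressing libraries, against 1.42, 6.25 and 22.5 FPKM in empty vector libraries. NDRG1 was at 66.9 and 71.2 FPKM in overexpressing libraries, against 11.2, 23.4 and 66.2 FPKM in empty vector libraries. KDM3A, a histone demethylase induced by HIF, was at 24.2 and 24.3 FPKM in overexpressing libraries, against 9.45, 15.5 and 42.2 FPKM in empty vector libraries. DDIT4 was at 154 and 167 FPKM in overexpressing libraries, against 35.5, 154 and 494 FPKM in empty vector libraries. In all 4 empty vector 3 was the lowest library and empty vector 5 the highest of its group, and these 4 were named after their values were seen.

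**Figure D4:**
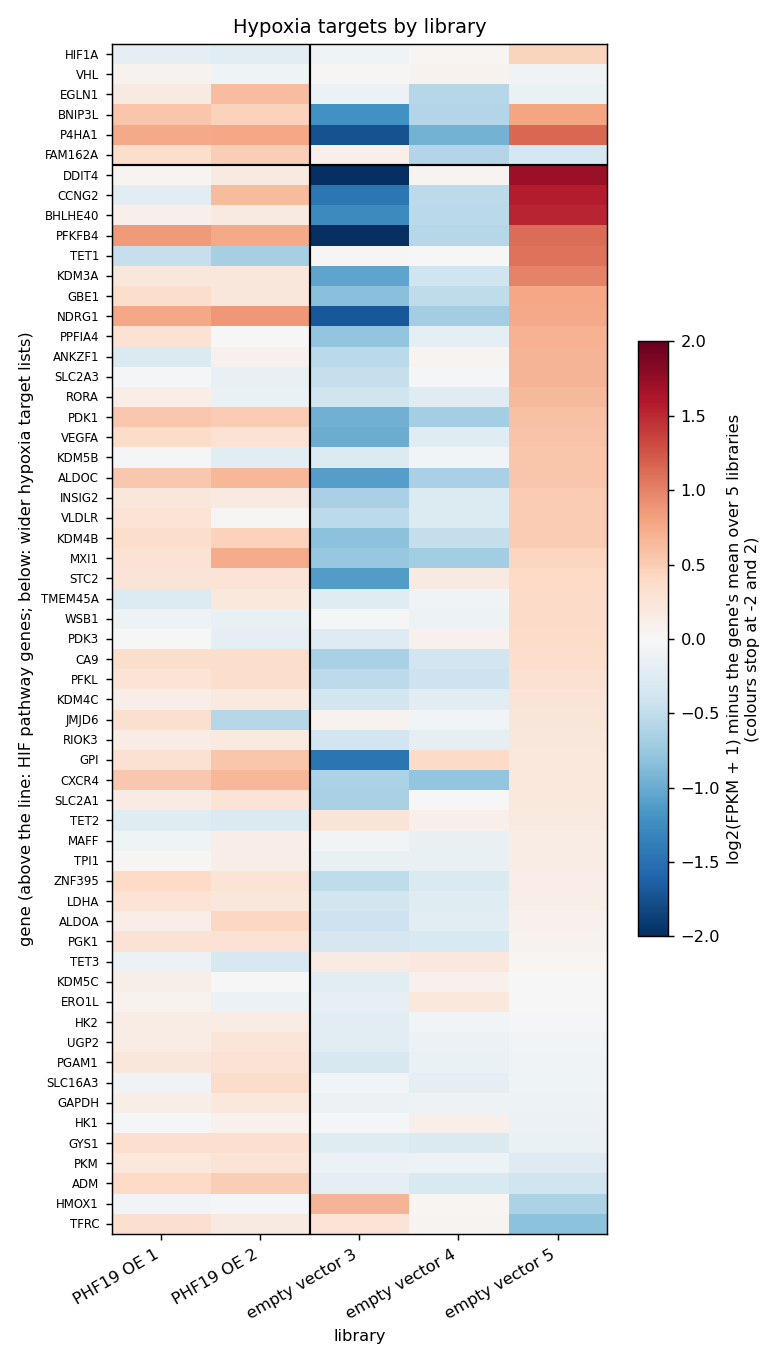
Each row is a HIF pathway gene (above the line) or a gene of the 3 hypoxia target lists (below it) that is above 0 in every library, and each column a library, with the 2 PHF19 overexpression libraries left of the 3 empty vector libraries. Colour is log2(FPKM + 1) minus the gene's mean over the 5 libraries, with target rows sorted by empty vector 5, so its order from top to bottom is fixed by the sorting; empty vector 3 is blue where empty vector 5 is red in most rows.

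Without empty vector 5 the differences of several targets were larger. The P4HA1 difference became 2.11 (SE 0.32; limma adjusted p = 0.0713) and that of BNIP3L 1.41 (limma adjusted p = 0.0838), both still short of the threshold. Without empty vector 3, the P4HA1 difference was 0.66. EGLN1 (0.74, adjusted p = 0.182) and FAM162A (0.66, adjusted p = 0.246) moved little, and HIF1A was at -0.18 (adjusted p = 0.316). The overexpression calls among all genes became 350 without empty vector 5 and 148 without overexpression library 1, against 94 with all 5 libraries, and in neither was a member called.

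None of the 93 genes of the wider lists tested here was called by limma-trend, with 16 at an unadjusted p under 0.05, and none by limma without trend and robust variances. Differences were positive in 67 and negative in 26, with a median of 0.27, beside 59.9% positive and 0.09 over all genes tested, and under quantile normalisation 55 were positive and 38 negative. Glucose metabolism had 21 of 24 positive differences (18 under quantile normalisation) and collagen hydroxylation 7 of 7. Of the 93 genes, 12 are listed at 0 in some library. Without such genes, 61 of 81 differences were positive, 19 of 21 in glucose metabolism and 6 of 6 in collagen hydroxylation. CITED2, a HIF-induced competitor for the coactivator EP300, was nearest to the threshold, at 60.7 and 59.7 FPKM in overexpressing libraries, against 28.9, 30.3 and 34.2 FPKM in empty vector libraries (log2 difference 0.93, SE 0.12; limma adjusted p = 0.0903). ADM, the vasodilator peptide adrenomedullin, was at 154 and 163 FPKM in overexpressing libraries, against 102, 94.0 and 88.0 FPKM in empty vector libraries (0.74, SE 0.11; limma adjusted p = 0.152). The glycogen synthase GYS1 was at 31.7 and 31.7 FPKM in overexpressing libraries, against 20.9, 20.2 and 22.6 FPKM in empty vector libraries (0.56, SE 0.11; limma adjusted p = 0.237). In these 3 genes the groups did not overlap and empty vector 5 was close to the other two. TET2, a DNA dioxygenase, was lower, at 2.87 and 2.75 FPKM in overexpressing libraries, against 4.48, 3.92 and 4.20 FPKM in empty vector libraries (-0.44, SE 0.14; limma adjusted p = 0.390).

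Without empty vector 5, 8 of 91 genes of the wider lists were called, all higher, where 3.48% of all 10063 genes were called, 2.56% higher. Empty vector 5 was singled out because it was high in these same targets, so its removal favours higher calls among them, and the count is a description that supports nothing by itself. Leaving out any other library gave 0 higher calls in these lists. The 8 genes were CITED2 (adjusted p = 0.0228), CXCR4 (log2 difference 1.31, adjusted p = 0.0324), P4HA2 (1.07, 0.0333), PGK1 (0.61, 0.0444), PFKL (0.78, 0.0445), PDK1 (1.34, 0.0449) and, listed at 0 in both remaining empty vector libraries, EP300 and P4HTM. P4HA2, the other main catalytic subunit of the collagen prolyl hydroxylase beside P4HA1, was at 34.4 and 37.9 FPKM in overexpressing libraries, against 17.1, 16.2 and 36.3 FPKM in empty vector libraries. PDK1, which holds pyruvate out of the mitochondrion's citrate cycle, was at 26.3 and 25.6 FPKM in overexpressing libraries, against 8.63, 10.7 and 27.2 FPKM in empty vector libraries. PDK1 repeats the arrangement of P4HA1. P4HA2 does not, because overexpression library 2 (37.9 FPKM) lay above empty vector 5 (36.3 FPKM). Leaving out overexpression library 1 leaves 1 overexpressing library, so that the spread comes from the empty vector libraries and the lone library is assumed to vary like them. In that fit 1.37% of all genes were called, 0.906% lower. Of the wider lists HIGD1A, a hypoxia-induced mitochondrial protein, was called lower, a call that rests on a single value listed at 0 in overexpression library 2.

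**Figure D5:**
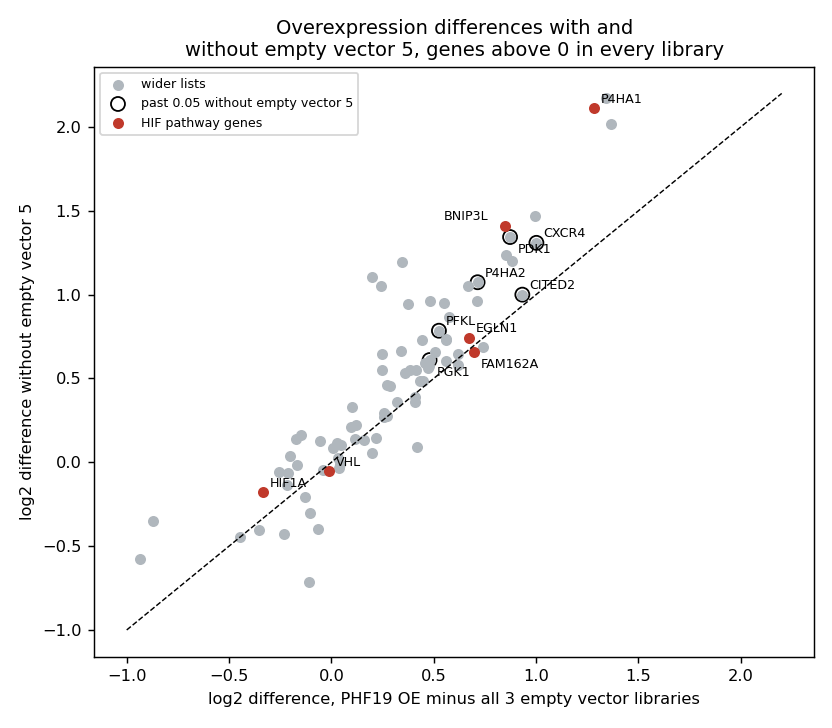
For each HIF pathway gene (red) and wider-list gene (grey) above 0 in every library, the log2 difference PHF19 overexpression (OE) minus empty vector with all 3 empty vector libraries (horizontal) and without empty vector 5 (vertical). Points on the dashed line are equal in both, black rings mark wider-list genes with limma adjusted p under 0.05 without empty vector 5, and P4HA1 is at 1.28 with and 2.11 without it.

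Side by side, the members that stood out in one experiment could not all be read in the other. NDUFA4L2 has no values in the overexpression table. ANKRD37 was lower in all shRNA libraries than in all scramble libraries, and in overexpression it lay within the range of the empty vector libraries. EGLN1 was higher than every control library in both experiments, with log2 differences of 0.20 in knockdown and 0.67 in overexpression and neither called. HIF1A and VHL were called in neither. The 2 tables were normalised separately, and the difference between the experiments was not tested.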

How the data were processed

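RNA-seq values were available for 11 libraries in 2 tables. The authors deposited abundances that are recorded here as FPKM, although the headers name no unit and RPKM or TPM could not be told apart from them. A p-value for each gene is deposited too, from a test that the authors do not describe. Per the submitters' processing notes, reads were aligned with TopHat to hg19. The quantifier, its strand setting and the gene filter were not given in the sources used here, and without counts no counting interval could be computed.

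Each comparison was fitted within its own table as log2(FPKM + 1) with limma-trend and robust variances (limma 3.58.1 under R 4.3.3). Tests were two-sided. Genes were tested if they reached 1 FPKM in 3 knockdown or 2 overexpression libraries, p-values were adjusted over these by Benjamini and Hochberg's method, and the threshold was 0.05. The fit was tested on simulated data. Exact permutation tests were run in R. Summaries and figures used Python 3.11.15 (pandas 2.3.3 and numpy 2.4.6 for tables, matplotlib 3.10.9 for plots). Genes listed at 0 in some library were 15.7% of those tested in overexpression and 0.239% in knockdown. In knockdown, equal-numbered shRNA and scramble libraries deviated together from their group means (r = 0.341, 0.270 and 0.273, against -0.277 to 0.0936 for unequal numbers). Deviations within a group sum to 0, so positive values for equal numbers force some of those for unequal numbers to be negative. The titles name no pairing, and it was read from these same values. The reported fit has no block, and a fit with the number as a block is given where it changes a call.

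The members, the 7 wider lists and the marker lists were chosen with earlier results of these data known. Genes of the wider lists were named where they passed the threshold or were among the 3 of their list with the next smallest adjusted p. EGLN2, NDUFA4, SHMT2, UFSP2, PFKFB4, KDM3A, DDIT4 and NDRG1 in overexpression and the genes called when a library was left out were named after their values were seen. Alternatives were the between-library scaling, the filter, the pseudocount, the variance model, genes listed at 0 and each library left out. Promoter windows came from RefSeq and were used for 7 of the 10 members. VHL and NDUFA4L2 had no window, and windows on the chromosome of BNIP3L were left out by choice.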

Additional observations from a re-analysis of the deposited data

How the results depend on the processing

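NDUFA4L2 stayed higher and called in knockdown under every alternative tried. Among all genes, the 601 knockdown calls became 269 with no filter on low values and 1295 with the replicate block, and 54 to 629 with a library left out. Calls were 76.9% higher as reported and 64.7% higher under quantile normalisation (377 higher and 206 lower). The replicate block called 2 members, ANKRD37 being the addition, and 17 genes of the wider lists, which other settings put at 11 (quantile normalisation and also median-of-ratios), 4 of 110 tested (no filter) and 1 to 10 (a library left out). Beside the values given with the results, the block also called JMJD6, SIAH1, PFKFB3, CRTAP and PGAM5, and it changed no other call among the pathway genes named here. No paired analysis was possible because the groups share no number in overexpression, where calls became 36 with a filter at 5 FPKM, 61 with a pseudocount of 0.1, 0 without genes listed at 0 (8665 tested), and 107 to 350 with a library left out. The 0 calls in its wider lists became 0 to 8. Signs turned for differences near 0 or wide in spread. With a library left out, the log2 difference ran from -0.17 to 0.16 for HIF1A, -0.10 to 0.19 for BNIP3L and -0.054 to 0.35 for NDUFA4 in knockdown, and from -0.089 to 0.064 for VHL, -0.71 to 0.46 for NDUFA4, -0.78 to 1.10 for DDIT4 and -0.078 to 0.95 for KDM3A in overexpression. BNIP3L in knockdown was at -0.091 under quantile normalisation and -0.00096 under median-of-ratios scaling. The settings also change which libraries or genes are tested. With a library left out, the filter asked for 1 FPKM in as many libraries as the smaller group then held. In knockdown this raised the genes tested from 10900 to between 11014 and 11065. The cause of these moves was not tested. Read depth is unknown and limits low genes such as BNIP3.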
